A study of Mus musculus with 7 samples.

Results

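Irf4 and Irf8 encode interferon regulatory factors (IRFs), the transcription factors with which BATF binds DNA in lymphocytes. They were taken from the deposited table by gene symbol and are 2 of its 752 genes. The table covers RNA sequencing of B cells from the spleens of 3 mice labelled Batf KO and 4 labelled wild type, all on the C57BL/6J background. B cells of both groups had been purified on magnetic columns and activated over 6 h in culture by 20 µg/mL of lipopolysaccharide (LPS), which bacteria shed and the receptor TLR4 senses, and by 20 ng/mL of interleukin-4 (IL-4). The labels describe neither the Batf allele nor the age or sex of the mice, and each of the 7 samples was stimulated. The table lists only genes that had passed the authors' own test of the same 7 libraries at a false discovery rate (FDR) of 0.05, which 3.81% of 19734 genes did. Both Irf4 and Irf8 therefore had to differ between the genotypes to be present, and the tests of their levels below describe the size of a difference and are not independent evidence of it.

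IRF4 and IRF8 are closely related factors of the blood lineages that bind DNA weakly on their own and are recruited by partners. With BATF and a JUN protein they occupy AP-1 and IRF composite elements (AICE), and with the ETS factors PU.1 and SPIB they occupy ETS and IRF composite elements (EICE). In B cells IRF4 is induced by antigen, TLR and CD40 signals through NF-kappaB. It is required for class switch recombination and, at high levels, for plasma cell differentiation, whereas IRF8 is abundant in naive and germinal centre B cells and restrains the plasma cell fate. The comparison therefore bears on what becomes of the transcripts of BATF's partners when Batf is disrupted.

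The 250 bases before the RefSeq start of each gene (build GRCm38.p6) are shown because both transcripts were higher without Batf, and they allow the sequence elements next to the 2 starts to be compared. Capitals mark TATA elements (TATAAA) and matches to the gamma-activated site (GAS, TTCNNNGAA), the element bound by STAT factors. The Irf4 sequence is chr13:30748983-30749232 on the plus strand and the Irf8 sequence is chr8:120736108-120736357 on the plus strand. GENCODE places the Irf4 start a few bases further upstream than RefSeq does.
Irf4: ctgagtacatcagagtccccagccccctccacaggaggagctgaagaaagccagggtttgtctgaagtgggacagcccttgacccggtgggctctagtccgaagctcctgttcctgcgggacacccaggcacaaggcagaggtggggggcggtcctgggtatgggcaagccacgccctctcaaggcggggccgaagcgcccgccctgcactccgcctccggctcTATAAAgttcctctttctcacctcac
Irf8: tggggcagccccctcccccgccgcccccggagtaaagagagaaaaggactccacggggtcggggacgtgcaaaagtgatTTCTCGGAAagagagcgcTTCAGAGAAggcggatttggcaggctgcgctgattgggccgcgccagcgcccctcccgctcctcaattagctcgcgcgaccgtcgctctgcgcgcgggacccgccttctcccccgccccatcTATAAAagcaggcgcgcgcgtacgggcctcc

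Each sequence held 1 TATA element, which began 26 bases before the start in Irf4 and 31 bases before it in Irf8. This element was found in 12.4% of the 32851 mouse promoter windows of the same length. The Irf8 sequence held 2 GAS matches, TTCTCGGAA beginning 171 bases and TTCAGAGAA beginning 153 bases before the start, and the Irf4 sequence held none, while 7.02% of windows held at least 1. Neither sequence held the AP-1 letters TGANTCA, which 6.75% of windows held. Both forms of the AICE contain these letters, either 4 bases after TTTC (0.0974% of windows) or directly after GAAA (0.100%), and both were absent. The EICE letters GGAA and, 2 bases on, GAAA (2.30%) and the tandem IRF letters GAAA and, 2 bases on, GAAA (2.98%) were also absent. A loose NF-kappaB pattern (GGG and, 5 bases on, CC) matched 2 times in Irf4 and 5 times in Irf8, where 3 matches overlap, and it occurred in 45.8% of windows. Both strands were searched. A missing match says only that these letters are not in this window. The G and C content was 63.6% in Irf4 and 67.2% in Irf8, against a median of 52.4% over all windows.

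The effective depth lay between 23675459 and 30844920 reads for Batf KO libraries and between 24891094 and 44728937 reads for wild-type libraries. Batf, the disrupted gene, was read at 63.4, 70.3 and 65.8 CPM (reads scaled to a common effective library total) in Batf KO replicates 1, 2 and 3, and at 307 to 333 CPM in the 4 wild-type libraries. The labels were therefore borne out in each of the 7 libraries, although Batf reads remained. Wild-type libraries were alike in pairs over the 752 genes: the chi-square statistic per degree of freedom was 18.0 between replicates 1 and 2 and 20.2 between replicates 3 and 4, and 32.5 to 48.5 for the other wild-type pairs. The sample titles carry numbers, and those of the Batf KO libraries lie between those of wild-type replicates 1 and 2, while replicates 3 and 4 have higher ones. Their meaning is not stated. Results that move with this pairing are given for each pair of wild-type libraries. The series' design text counts 4 wild-type and 3 Batf KO mice and also speaks of 2 replicates for all samples, without saying what these are. Whether each library is 1 mouse is therefore not certain, n counts libraries throughout, and p-values measure the spread between these samples, which may be technical.

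Irf4 (ENSMUSG00000021356, chromosome 13, 30749226 to 30766976, plus strand, GRCm38) was more than 2 times as high in Batf KO as in wild type. It was read at 1389, 1566 and 1371 CPM in Batf KO replicates 1, 2 and 3. In wild-type replicates 1, 2, 3 and 4 it was read at 608, 597, 716 and 727 CPM. The lowest Batf KO library thus lay far above the highest wild-type library, and the wild-type libraries themselves formed a lower pair and a higher pair. Batf KO averaged 1442 CPM (SD 108, n = 3) and wild type 662 CPM (SD 68.8, n = 4). In edgeR's quasi-likelihood test this was a 2.18-fold increase (log2 1.12, SE 0.09, adjusted p = 2.24e-05 over the 667 genes fitted, 100% of which passed, 50.8% as higher, since the table was selected). Adjusted over all 19734 genes the authors tested, p was 0.000664, a threshold that 1.45% of genes passed and 0.679% passed as higher. By mean level per kilobase of merged exons, Irf4 ranked 15 in wild type and 8 in Batf KO among the 660 listed genes that had a length and passed the CPM filter. In the authors' deposited table Irf4 stands at rank 51 by p-value, and at rank 12 among the 384 higher genes (FDR 1.97e-15).

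Irf8 (ENSMUSG00000041515, chromosome 8, 120736358 to 120756694, plus strand, GRCm38) was also higher in Batf KO, by a smaller factor. It was read at 769, 751 and 743 CPM in Batf KO replicates 1, 2 and 3, a spread of 1.72% of their mean (SD). In wild-type replicates 1, 2, 3 and 4 it was read at 518, 604, 438 and 429 CPM, a spread of 16.4%. The groups did not overlap, and here wild-type replicates 3 and 4, which were the higher pair for Irf4, were the lower pair. Batf KO averaged 754 CPM (SD 13.0, n = 3) and wild type 497 CPM (SD 81.5, n = 4). This was a 1.52-fold increase in edgeR's quasi-likelihood test (log2 0.60, SE 0.11, adjusted p = 0.00151), and the authors' deposited table gives an FDR of 0.00126. Adjusted over all 19734 genes, the edgeR p was 0.0446. That value rose to between 0.0937 and 0.200 when any 1 library other than wild-type replicate 2 was left out, and fell to 0.00661 without wild-type replicate 2. Of the 667 listed genes fitted, the groups did not overlap for 96.1%, so the separation of the groups sets neither gene apart in this table. In whole B cell cultures, a change in the share of cells that carry a transcript and a change in its amount per cell cannot be told apart.

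**Figure D1:**
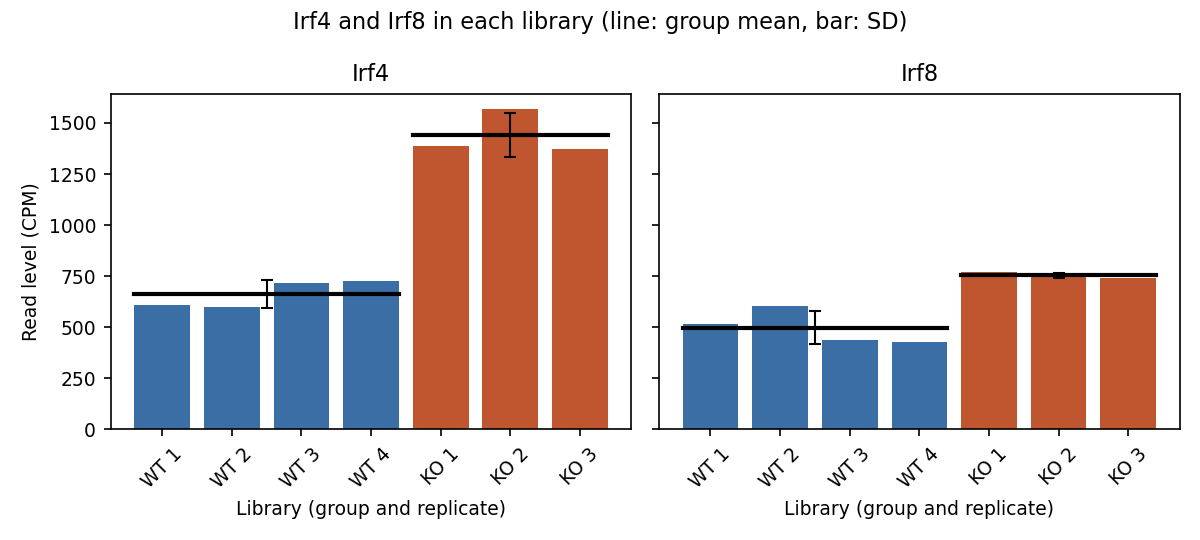
Read levels of Irf4 (left) and Irf8 (right) in CPM on a linear axis, 1 bar for each library, with wild type in blue and Batf KO in orange; black lines are group means and the bars on them are SD (n = 4 and n = 3). Irf4 stands at 1371 to 1566 CPM in Batf KO and 597 to 727 CPM in wild type, and Irf8 at 743 to 769 CPM and 429 to 604 CPM.

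When the CPM values were permuted over all 35 assignments of the libraries to 2 groups of these sizes, the exact two-sided p was 0.0286 for Irf4 and for Irf8, the smallest value possible here. Adjusted over the 3 quantities tested in this way (Irf4, Irf8 and their ratio), p was 0.0429 for both genes. Both genes were listed because they differed on this contrast, which this adjustment does not account for. These p-values are therefore not independent evidence of a difference.

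The balance between the 2 factors was read from the ratio of their counts within a library, which does not depend on depth or on the scaling. There were 1.81, 2.09 and 1.84 Irf4 reads per Irf8 read in Batf KO replicates 1, 2 and 3. In wild-type replicates 1, 2, 3 and 4 there were 1.17, 0.989, 1.63 and 1.69. Each Batf KO library lay above each wild-type library, but wild-type replicate 4 was close to Batf KO replicate 1. The 95% counting intervals (exact Clopper-Pearson) were 1.65 to 1.73 for wild-type replicate 4 and 1.78 to 1.84 for Batf KO replicate 1. These intervals cover counting error only. The mean ratio was 1.91 ± 0.15 (SD, n = 3) in Batf KO and 1.37 ± 0.35 (SD, n = 4) in wild type. On the log2 scale the difference was 0.51, which did not pass the exact two-sided permutation test (p = 0.0857, adjusted p = 0.0857). A larger gain of Irf4 than of Irf8 was thus present in the means and was not separated from the spread between the wild-type libraries.

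That spread followed the pairs of wild-type libraries. Against wild-type replicates 1 and 2 alone, the log2 ratio in Batf KO was higher by 0.82, and against replicates 3 and 4 alone by 0.20. Neither subset can reach an exact permutation p below 0.1. For Irf4 the fold in edgeR's fit was 2.39 against replicates 1 and 2 and 2.00 against replicates 3 and 4. For Irf8 it was 1.34 and 1.74. The increase of Irf4 was thus the larger against both pairs, by a wide margin against replicates 1 and 2 and a narrow one against replicates 3 and 4. The source of the difference between these pairs was not tested.

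**Figure D2:**
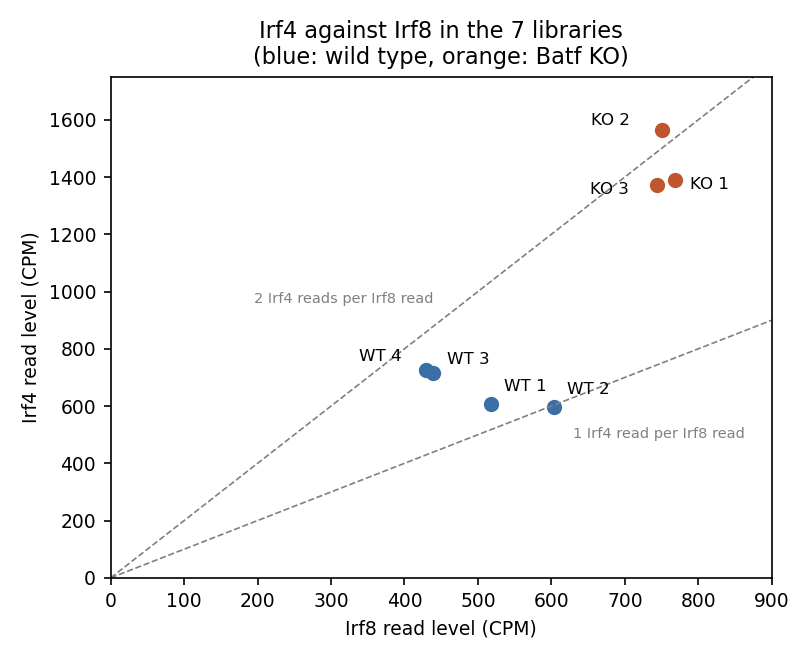
Irf4 level against Irf8 level, both in CPM on linear axes, 1 point for each library (blue, wild type; orange, Batf KO); dashed lines mark 1 and 2 Irf4 reads per Irf8 read. The wild-type points run from the lower right (replicate 2, ratio 0.989) to the upper left (replicate 4, ratio 1.69), and the Batf KO points lie apart at the upper right.

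Irf4 and Irf8 moved in opposite directions among the wild-type libraries, so their summed reads varied little there. The sum was 1126, 1201, 1155 and 1156 CPM in wild-type replicates 1, 2, 3 and 4, an SD of 2.68% of the mean, while Irf4 alone varied by 10.4% and Irf8 alone by 16.4%. In Batf KO replicates 1, 2 and 3 the sum was 2157, 2316 and 2114 CPM. The Batf KO sum was 1.89 times that of wild type, and it was 1.89 times that of wild-type replicates 1 and 2 and 1.90 times that of replicates 3 and 4. Unlike either gene or their ratio, the difference in the sum was thus nearly the same against both wild-type pairs. Across the 7 libraries, the correlation of log2 levels of the 2 genes was 0.80, which mostly reflects the genotypes. The correlation of their deviations from the group means was -0.82, and it rests on 7 libraries that also share their scaling. Over the 4 wild-type libraries alone the correlation was -0.95, while Irf8 varied by only 1.72% (SD) among the Batf KO libraries. The negative correlation thus mainly restates the wild-type pairs. The sum counts reads, so a longer transcript weighs more in it.

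**Figure D3:**
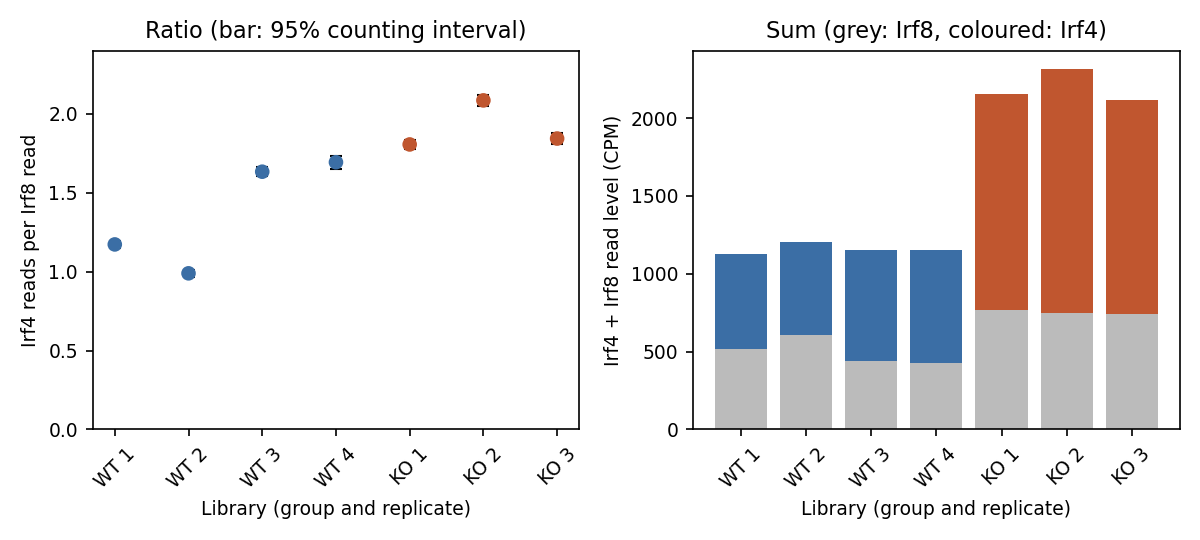
Left, Irf4 reads per Irf8 read in each library, with 95% counting intervals that are mostly hidden by the points; right, the summed level of both genes in CPM, with Irf8 in grey and Irf4 in colour (blue, wild type; orange, Batf KO). The ratio spans 0.989 to 1.69 in wild type and 1.81 to 2.09 in Batf KO, while the sum stays at 1126 to 1201 CPM in wild type and reaches 2114 to 2316 CPM in Batf KO.

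Levels of different genes were compared per kilobase of transcript. With the merged exons of GENCODE M21 (4.90 kb for Irf4, 7.05 kb for Irf8), wild type held 135 ± 14.0 CPM per kb of Irf4 and 70.5 ± 11.5 CPM per kb of Irf8 (SD, n = 4). Batf KO held 294 ± 22.0 and 107 ± 1.84 CPM per kb (SD, n = 3). Irf8 has 7 annotated transcripts, and its longest measures 3.47 kb, against 4.76 kb for the longest of Irf4. With these lengths the wild-type levels were 139 ± 14.4 CPM per kb for Irf4 and 143 ± 23.5 CPM per kb for Irf8 (SD, n = 4), and the ratio per kb averaged 0.999. Which of the 2 transcripts was the more abundant in wild type thus depends on the length assumed, while in Batf KO Irf4 was higher per kb under both (ratio 2.75 or 1.39). The annotation also holds a long gene model, Gm20388, on the same strand across the whole of Irf8, and no source used here says how reads shared by overlapping genes were treated.

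Of the other IRF family genes, Irf5, which acts downstream of TLR signals, was also listed as higher. It was read at 315, 290 and 279 CPM in Batf KO and 207 to 230 CPM in wild type, without overlap. Its increase was 1.33-fold (SE 0.07 on the log2 scale, adjusted p = 0.0178 over 19734 genes in edgeR's test), and its wild-type pairs did not part (225 and 217 CPM). That call was lost against wild-type replicates 1 and 2 alone (edgeR adjusted p = 0.108), against replicates 3 and 4 alone (0.0599), and without Batf KO replicate 1 (0.0887) or 2 (0.0877). Per kb of merged exons the order in wild type was Irf4 (135), Irf5 (76.1 ± 3.50) and Irf8 (70.5 ± 11.5 CPM per kb, SD, n = 4), and the last 2 did not differ beyond their spread. The place of Irf8 in this order rests on the merged exon length, as above. In all, 3 of the 9 IRF family genes were listed and each was higher, against 1.95% of all genes tested listed as higher by the authors. Irf4 and Irf8 are among these 3 because they were chosen from the listed genes, so only Irf5 adds to that count. The remaining 6 are not in the table and have no level here.

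Among AP-1 family genes, whose products share DNA elements with BATF or with IRF4, 7 of 16 were listed, 4 higher and 3 lower, where the authors listed 1.95% and 1.86% of all genes. Jun, the BATF partner, had a mean of 141 CPM in wild type (SD 22.6, n = 4) and 256 CPM in Batf KO (SD 18.7, n = 3), a 1.81-fold increase (edgeR adjusted p = 0.00999 over 19734 genes). That adjusted p was 0.0663 without Batf KO replicate 1 and 0.0593 without Batf KO replicate 2, so the edgeR call was lost in both cases, and it held without any 1 of the other libraries. Like Irf8, it was higher in wild-type replicates 1 and 2 (160 and 162 CPM) than in replicates 3 and 4 (120 and 124 CPM). Jund (1.41-fold) and Atf3 (1.64-fold) were listed as higher and missed the threshold over 19734 genes (edgeR adjusted p = 0.199 and 0.130). Lower were Batf itself, its relative Jdp2 (2.03-fold, from 6.33 to 3.11 CPM, a call over 19734 genes that held only without Batf KO replicate 1 or wild-type replicate 2 among the 7 libraries left out in turn) and Bach2, a repressor of plasma cell differentiation, with a mean of 134 CPM in wild type (SD 3.33, n = 4) and 74.2 CPM in Batf KO (SD 4.83, n = 3). Batf fell while both IRF genes rose, so the reads of Irf4 per Batf read went from 1.93 to 2.25 in wild type to 20.8 to 22.3 in Batf KO. For Irf8 the range went from 1.32 to 1.97 in wild type to 10.7 to 12.1 in Batf KO. The larger part of both shifts is the fall of Batf, the disrupted gene, which the genotype itself gives. Its log2 change was -2.26, against 1.12 for Irf4 and 0.60 for Irf8.

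The other DNA-binding partners of the 2 factors that were listed were all higher: 4 of 16, where 1.95% of all genes tested were listed as higher. Spib encodes the ETS factor that recruits IRF4 and IRF8 to EICE elements. It was read at 338, 346 and 333 CPM in Batf KO and at 245, 246, 204 and 232 CPM in wild type, a 1.46-fold increase (edgeR adjusted p = 0.00797 over 19734 genes). Nfatc1, a factor activated by calcium signals, had a mean of 70.7 CPM in wild type (SD 1.82, n = 4) and 109 CPM in Batf KO (SD 8.14, n = 3), a 1.54-fold increase. Bcl6, the germinal centre repressor, rose 1.48-fold. Ikzf1, which encodes Ikaros, was 1.30-fold higher, with an edgeR adjusted p of 0.0637 over 19734 genes. The number of partners that passed that adjustment was 3. It was 1 without Batf KO replicate 2 and 2 without Batf KO replicate 1, Batf KO replicate 3 or wild-type replicate 3, or against wild-type replicates 1 and 2 alone. Nfatc1 passed with any 1 library left out, Spib missed without Batf KO replicate 2 (edgeR adjusted p = 0.0575), and Bcl6 had its highest value there (edgeR adjusted p = 0.121).

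**Figure D4:**
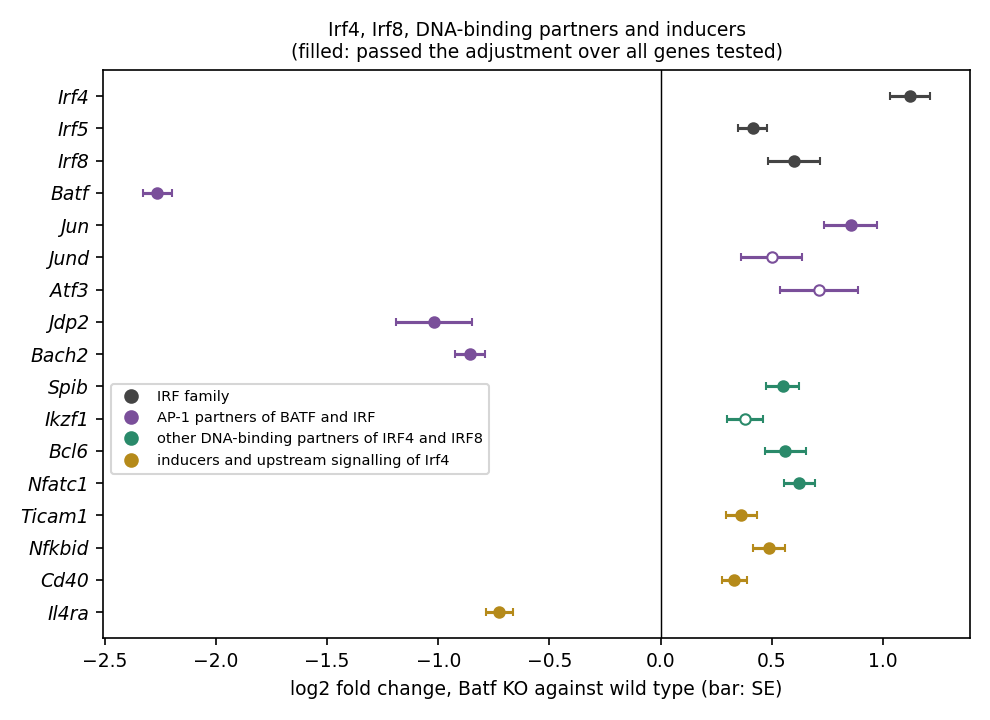
Log2 fold change of Batf KO against wild type with its SE for Irf4, Irf8 and the fitted genes of 4 lists, coloured by list; filled points passed the edgeR adjustment over 19734 genes. Irf4 (1.12) lies furthest to the right, Batf (-2.26) furthest to the left, and Bach2, Jdp2 and Il4ra are the other genes below 0.

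Of the genes of the signals that induce Irf4, 4 of 22 were listed, 3 higher and 1 lower, where 1.95% and 1.86% of all genes tested were. The adaptor gene Ticam1, which carries a TLR4 signal, was 1.29-fold higher. Nfkbid, which encodes a nuclear regulator of NF-kappaB, was 1.40-fold higher, and the costimulatory receptor gene Cd40 was 1.26-fold higher. The IL-4 receptor gene Il4ra was the lower one, with a mean of 138 CPM in Batf KO (SD 3.76, n = 3) and 229 CPM in wild type (SD 10.8, n = 4). All 4 passed the edgeR adjustment over 19734 genes with all libraries (Ticam1 adjusted p = 0.0446). Against either wild-type pair alone, and without Batf KO replicate 1 or 2, no higher gene passed it and Il4ra did. Ticam1 lost its call whichever library was left out (edgeR adjusted p = 0.0859 to 0.204), Cd40 in each case except without wild-type replicate 2, and Nfkbid without Batf KO replicate 1 or 2. The NF-kappaB subunit genes Rel, Rela, Relb, Nfkb1 and Nfkb2 and the receptor gene Tlr4 are not listed.

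Genes that have been described as targets of IRF4 or IRF8 in B cells were listed in both directions, 7 higher and 9 lower of 36, where 1.95% and 1.86% of all genes tested were listed. Higher were Il10, an anti-inflammatory cytokine gene (3.55-fold), and the chemokine receptor gene Ccr7 (1.61-fold), both past the adjustment over 19734 genes (edgeR adjusted p = 0.00242 and 0.000789). Lower were Nfil3 (3.31-fold), the chromatin repressor gene Ezh2 (2.37-fold), Bhlhe40 (2.16-fold), the early response gene Egr2 (3.08-fold) and the coactivator gene Pou2af1 (1.70-fold), which also passed. Prdm1, the plasma cell regulator gene that IRF4 activates, was read at 6.39, 6.75 and 5.20 CPM in Batf KO and 7.30, 8.84, 11.6 and 13.0 CPM in wild type, with an edgeR adjusted p of 0.276 over 19734 genes. Of the 15 target genes fitted, 4 higher and 7 lower passed that adjustment. The higher count was 2 without Batf KO replicate 2 and 3 without Batf KO replicate 1 or 3 or wild-type replicate 1 or 3, while the lower count stayed at 7 with any 1 library left out.

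The germline transcripts and switching genes had 8 of 21 listed, all lower, where 1.86% of all genes tested were listed as lower, so the higher Irf4 and Irf8 levels stood beside lower constant region transcripts. Ighg1, the transcript of the IgG1 isotype that IL-4 favours, had a mean of 17.2 CPM in wild type (SD 4.00, n = 4) and 8.25 CPM in Batf KO (SD 1.42, n = 3). Its edgeR adjusted p over 19734 genes was 0.0496 and lay above the threshold when any 1 library other than wild-type replicate 2 was left out (highest 0.237). Of the 6 genes of this list that were fitted, 5 passed that adjustment as lower. Ighg3, Ighg2b, Ighg2c and Igha also passed it with any 1 library left out. They lay near the floor in Batf KO, with 96, 9, 2 and 2 reads over the 3 libraries. The constant genes are near copies of each other, and no source used here says how their shared reads were counted.

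The listed genes most like each factor were ranked by the correlation of log2(CPM + 0.5) over the 7 libraries. Because each listed gene differs between the genotypes, high correlations are common here, and the correlation of the deviations from the group means is given beside each. These deviations include the split between the wild-type pairs, whose source was not tested. Each gene named below was on average higher in the wild-type pair in which its factor was higher. For Irf4 they were the adhesion receptor gene Adgrg1 (0.995, deviations 0.90), the kinase gene Sik3 (0.992, 0.87), the semaphorin gene Sema7a (0.991, 0.82), Ppp1r18 (0.990, 0.71) and Ccr7 (0.989, 0.65). For Irf8 they were Litaf (0.987, 0.97), the ubiquitin ligase gene Cblb (0.987, 0.94), E2f1 (0.985, 0.93), Jun (0.978, 0.89) and Rassf4 (0.973, 0.88). By likeness to Irf4, Irf8 stood at rank 240 of 663. Litaf shows the pattern of Irf8 at a lower level: 56.7, 60.1 and 57.0 CPM in Batf KO, and 43.5, 49.5, 34.3 and 34.9 CPM in wild-type replicates 1, 2, 3 and 4. Sema7a, by contrast, was read at 340 to 346 CPM in Batf KO and at 176, 169, 188 and 181 CPM in wild type, where replicates 3 and 4 are the higher pair as for Irf4.

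Around Irf4, 2 of the 12 protein-coding genes that start within 1 Mb were listed, where 3.81% of all genes tested were. The phosphatase gene Dusp22, which starts 89.2 kb before Irf4, was 1.55-fold higher, with means of 16.9 CPM in Batf KO (SD 2.25, n = 3) and 10.9 CPM in wild type (SD 1.68, n = 4). The respiratory chain gene Uqcrfs1, 203.9 kb before it, was 1.32-fold higher. Around Irf8, 1 of 24 was listed, the actin-binding gene Cotl1 at 895.8 kb, which was 1.52-fold higher. Over 19734 genes none of the 3 passed (edgeR adjusted p = 0.107, 0.121 and 0.0561).

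Irf8 and Irf4 are also expressed by dendritic cells, and Irf4 by plasma cells. For the counts below, the authors listed 1.95% of all genes tested as higher and 1.86% as lower. Of 14 dendritic cell markers, Zbtb46 was listed as higher (73.6 to 89.6 CPM in Batf KO, 47.4 to 65.6 CPM in wild type) and Id2 as lower, and neither passed over 19734 genes (edgeR adjusted p = 0.0744 and 0.0759). Of 8 plasma cell markers, Slamf7 and Irf4 itself were listed as higher and Prdm1 as lower. Of 9 B cell markers only Ms4a1, which encodes CD20, was listed. It was higher in Batf KO, at 832 to 905 CPM against 533 to 613 CPM. None of 16 monocyte, macrophage and neutrophil markers was listed, and 2 of 18 T and NK cell markers were, Cd8b1 (higher) and Tbx21 (lower). Of 12 marginal zone and B1 markers, 3 were listed as higher and 1 as lower, and of 9 erythroid and platelet markers only Pf4 was listed, as higher. Early response genes that also react to handling were listed as higher in 7 of 16. Of these, 2 (Jun and Ier2) passed the adjustment over 19734 genes, which 0.679% of all genes passed as higher. The number of early response genes past it was 0 without Batf KO replicate 1 or 2, 1 without wild-type replicate 1, 3 or 4, and 5 with DESeq2. The part of other cells or of handling in the levels of Irf4 and Irf8 was not tested, and markers outside the table have no level here.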

How the data were processed

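RNA of 3 Batf KO and 4 wild-type B cell cultures was analysed from 1 deposited table. Build mm10 and the tools edgeR 3.03, HTSeq 0.5.3p7 and TopHat2 2.0.6 appear without roles in the submitters' processing notes. Annotation and strand setting were not given in the sources used here. Per the file headers, the deposited table holds read counts and CPM for each library, and the authors' log2 fold change and log2 mean CPM, likelihood ratio (a score), p-value and FDR. Its 752 genes have an FDR of at most 0.0499, and FDR, rank and p-value together show that the authors adjusted over 19734 genes.

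Groups follow the genotype label, and replicates are numbered in accession order. Irf4 and Irf8, the gene lists and the alternatives were chosen with earlier results of these data known. Library sizes were recovered as count over CPM. Counts were fitted by edgeR 4.0.16 (quasi-likelihood test, R 4.3.3) for the 667 genes whose CPM averaged 1 or more. Benjamini-Hochberg adjustment ran over them and, more strictly, over 19734 genes, with absent genes taken as not passing. Fold changes and SE come from this fit. The step was tested on simulated counts with a fixed dispersion in which most genes did not change. It was not tested on genes selected on the contrast, as those fitted here were. Exact permutation tests used scipy 1.17.1 on the absolute difference of means. Text names Irf4, Irf8, listed genes of the lists, the 5 genes most like each by correlation over the 7 libraries, and listed neighbours within 1 Mb; some members of the lists are counted but not reported by name here. Positions are from GENCODE M21 (742 of 752 identifiers matched) and promoter sequences from RefSeq (GRCm38.p6, both genes matched). DESeq2 1.42.0 and limma 3.58.1 served as alternatives.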

Additional observations from a re-analysis of the deposited data

Results flagged for a closer look

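Among the 65 sets of 4 wild-type values examined, 3 held a library whose gap to the nearest other took more of the range than Dixon's 95% critical value of 0.829. Chance gives about 3.25. Dusp22, the neighbour of Irf4, had 13.4 CPM in wild-type replicate 3, where the other 3 libraries had 9.84 to 10.1 CPM. Nfatc1 had 73.4 CPM in wild-type replicate 4, where the others had 69.6 to 70.1 CPM. Cd86, a costimulatory gene, had 217 CPM in wild-type replicate 3, where the others had 255 to 260 CPM. Neither Irf4, Irf8 nor their ratio held such a library. Groups of 3 were not examined.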

How the results depend on the processing

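The log2 change of Irf4 was 0.999 to 1.26 over 16 alternatives and 1.06 to 1.17 with 1 library left out, and that of Irf8 was 0.43 to 0.80 and 0.54 to 0.71. All 667 genes fitted pass the threshold over the table because they were selected on this contrast, so calls there, including those of Irf4 and Irf8, say nothing about stability. Combining the adjustment over 19734 genes with each other setting, for Irf4, Irf8, the lists and their genes, was chosen after seeing the data. There Irf4 passed throughout, with a highest adjusted p of 0.00723, and Irf8 lost its call in 11 of 15 settings, among them TMM factors (edgeR adjusted p = 0.0621), limma with a pseudocount of 0.5 (0.0787) and wild-type replicates 1 and 2 alone (0.0853). Of the 339 higher and 328 lower calls, 134 and 152 were left over 19734 genes, which is stricter by construction, and were 323 to 339 and 326 to 328 with 1 library left out. The log2 difference of the Irf4 to Irf8 ratio was 0.37 to 0.62 with 1 library left out, lowest without wild-type replicate 2. With the longest transcripts the ratio per kb was 1.39 in Batf KO and 0.999 in wild type in place of 2.75 and 1.97. No paired analysis was possible because the labels give no replicate numbers shared by the groups. Depth does not limit Irf4 or Irf8 (at least 10680 reads each), and limits the 85 listed genes below the CPM minimum, which were not fitted.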

Other observations

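Several regulators of B cell fate differed between the pairs of wild-type libraries in which Irf4 and Irf8 differed. They were chosen after their values were seen, and no test was run. Prdm1 averaged 8.07 CPM in wild-type replicates 1 and 2 and 12.3 CPM in replicates 3 and 4. Zbtb32, a repressor gene, averaged 56.7 and 93.9 CPM, and Ezh2 averaged 142 and 181 CPM. In Batf KO these genes averaged 6.11, 33.8 and 68.2 CPM. Prdm1, Zbtb32 and Ezh2 were thus higher in the wild-type pair with more Irf4 and lower in Batf KO, where Irf4 was highest. Bhlhe41 did not share this pattern: it averaged 6.64 and 12.6 CPM in the 2 wild-type pairs and 18.3 CPM in Batf KO, in the order of Irf4. Its higher wild-type mean rests largely on replicate 4, with 16.3 CPM against 8.83 CPM in replicate 3. Nfil3 averaged 250.2 and 250.3 CPM in the same 2 wild-type pairs.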
